A study of Homo sapiens with 8 samples.

Results

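MALAT1, NEAT1 and TUG1 are long noncoding RNAs (lncRNAs) found in the cell nucleus. They were taken by symbol from the gene table and are 3 of its 13471 genes. All 3 had a value in all 8 libraries, as did every other gene of that table (0 zeros). Whether rows with zeros had been removed beforehand is not known here. No further filter on low values was applied. RNA recovered with hnRNP U (also named SAF-A) by immunoprecipitation (IP) was sequenced from hTERT-RPE1, a telomerase-immortalized line of human retinal pigment epithelium. All cells were first held in thymidine, an agent that stalls DNA replication. The 4 groups had 2 libraries each: interphase without IP and interphase IP (2 mM thymidine for 24 h), and mitosis without IP and mitosis IP (2 mM thymidine for 24 h, release for 6 h, then overnight STLC, which blocks the mitotic kinesin Eg5). The IP used the anti-hnRNP U antibody 3G6 on cleared detergent lysate. The study worked in this single line, and no control-antibody IP enters the comparisons, so RNA bound by hnRNP U cannot be told apart from RNA that came down with the beads. Levels are given as FPKM, fragment counts scaled to gene length and library total.

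As background, MALAT1 gathers at nuclear speckles, the bodies that store splicing factors, and NEAT1 is the scaffold on which paraspeckles are built. Both lie next to each other on chromosome 11. Neither the long NEAT1 form nor MALAT1 ends in an ordinary poly(A) tail: RNase P cuts each transcript just before a tRNA-like fold, RNase Z trims the small RNA that is set free, and the new end of the long RNA is held in a triple helix of U-rich and A-rich stretches. TUG1 is spliced and polyadenylated, is found in the nucleus and in the cytoplasm, and has been linked to Polycomb proteins. hnRNP U is an abundant nuclear protein that binds RNA and DNA.

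The ends of the 3 RNAs are shown because they are what sets MALAT1 and NEAT1 apart from TUG1 as molecules. GENCODE release 29 on GRCh38 places MALAT1 (ENSG00000251562.8, lincRNA, plus strand) on chromosome 11 at 65497688 to 65506516, with a longest transcript of 8708 nt in 1 exon. NEAT1 (ENSG00000245532.8, lincRNA, plus strand) lies at 65422774 to 65445540 of the same chromosome, with a longest transcript of 22743 nt in 1 exon and a short form of 3524 nt. TUG1 (ENSG00000253352.9, a lncRNA that starts at a bidirectional promoter, plus strand) lies on chromosome 22 at 30969245 to 30979395, with a longest transcript of 7469 nt in 3 exons. Below are the 100 bases that end where each tRNA-like RNA begins (chr11:65506017-65506116 for MALAT1 and chr11:65445441-65445540 for NEAT1), from the GENCODE transcripts on GRCh38, 5′ to 3′ on the plus strand. Capitals mark runs of at least 4 T or at least 4 A.
MALAT1, end before the tRNA-like RNA: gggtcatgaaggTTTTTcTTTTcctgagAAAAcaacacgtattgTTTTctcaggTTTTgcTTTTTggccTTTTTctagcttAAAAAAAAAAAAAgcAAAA
NEAT1, end before the tRNA-like RNA: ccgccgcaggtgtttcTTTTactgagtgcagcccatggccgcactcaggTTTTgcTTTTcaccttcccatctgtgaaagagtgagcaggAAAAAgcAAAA
MALAT1 held 6 such T runs and 3 such A runs, the longest A run being 13 bases. NEAT1 held 3 T runs and 2 A runs, with a longest A run of 5 bases.

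The tRNA-like RNAs that follow (chr11:65506117-65506173, 57 bases, and chr11:65445541-65445598, 58 bases, the same strand and source) are annotated to 1 family. Capitals mark bases that are identical in a global alignment of both.
MALAT1 tRNA-like RNA: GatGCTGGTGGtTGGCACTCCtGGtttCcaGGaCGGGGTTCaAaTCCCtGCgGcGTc
NEAT1 tRNA-like RNA: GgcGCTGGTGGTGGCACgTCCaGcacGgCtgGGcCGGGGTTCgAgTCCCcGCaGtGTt
They shared 41 of 61 alignment columns (67.2%). TUG1 ends instead after the polyadenylation signal AATAAA, shown in capitals in its last 30 bases (chr22:30979366-30979395, plus strand).
TUG1, last 30 bases: tattttaAATAAAgaatttttaaaattaaa
The gene table gives 1 value per gene, so the short and long forms of NEAT1 cannot be told apart. Whether fragments were counted by strand is not given in the sources used here, so antisense RNA at these genes cannot be told apart from the genes themselves.

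The 10 genes with the highest values took 12.4% to 20.6% of the summed FPKM of an IP library and 58.4% to 63.0% of that of a library without IP. Fragment totals are unknown. Whole-fragment steps among low values gave depths of 0.638 to 1.189 relative to interphase without IP replicate 1. Both ends of that range were mitotic IP libraries (0.638 for replicate 1 and 1.189 for replicate 2). The most common step held 41 of 653 low genes for the former and 33 of 680 for the latter. In the separate table of lncRNA features described below, the same reading gave 0.524 to 2.413, both ends being interphase IP libraries. These depths are therefore rough. Phase markers followed the labels without IP: CCNB1, PLK1, CDC20 and AURKA, which act in mitosis, were higher in mitosis, and CCNE2, a cyclin of S phase entry, and HIST1H3H, a histone gene active in S phase, were lower, with limma log2 fold changes from -7.51 to 2.52. Of the pigment epithelium markers, MITF (7.06 to 33.2 FPKM), OTX2 (3.33 to 22.2 FPKM), KRT8 (up to 58.9 FPKM) and KRT18 (18.6 to 79.2 FPKM) were present, while the pigment gene PMEL stayed at or below 0.144 FPKM. TERT, the telomerase gene, was at most 0.359 FPKM. These are 6 of the 11 markers listed, with TERT counted among them. The other 5, the pigment epithelium markers RPE65, BEST1, RLBP1, TYR and SERPINF1, were looked up, gave no value and were not analysed here. The gene of the precipitated protein, HNRNPU, averaged 32.1 ± 0.440 FPKM (SD, n = 2 here and for each group below) in the interphase libraries without IP, and 59.5 ± 0.0199 FPKM with it. In mitosis the averages were 46.7 ± 0.706 FPKM without IP, and 51.0 ± 4.77 FPKM with it. Its effect of the IP was called in interphase (0.87, log2) and not in mitosis (0.12). The difference between the phases, mitosis minus interphase, was -0.75 and was called (limma adjusted p = 0.00248). When trends with length and GC content of the transcript were taken out, both effects were called lower, at -0.68 and -0.63. The difference was then 0.05 and not called (limma adjusted p = 0.772).

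MALAT1 was higher in the IP than without it in both phases, and higher in mitosis than in interphase both with and without IP. Without IP it stood at 186 and 170.4 FPKM in the replicates of interphase and at 929.7 and 756 FPKM in those of mitosis. In the IP it stood at 1338 and 1134 FPKM in interphase and at 4919 and 3400.2 FPKM in mitosis. The 4 groups did not overlap, and their order ran from interphase without IP through mitosis without IP and the interphase IP to the mitotic IP. The steps between neighbours in that order were 4.73-fold, 1.47-fold and 3.36-fold in the group means. The group means were 178 ± 11.2, 843 ± 123, 1236 ± 144 and 4159 ± 1074 FPKM in the same order. Among all 13471 genes MALAT1 ranked 334 and 371 in the interphase libraries without IP and 8 and 6 in those of the mitotic IP. Its share of the FPKM sum was 1.07% and 0.895% in the mitotic IP against 0.0171% and 0.015% in the interphase libraries without IP. That sum itself was lower in the mitotic IP, at 459661 and 379709, than in interphase without IP, at 1087270 and 1138350. The share therefore differed by more than the FPKM values did.

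**Figure D1:**
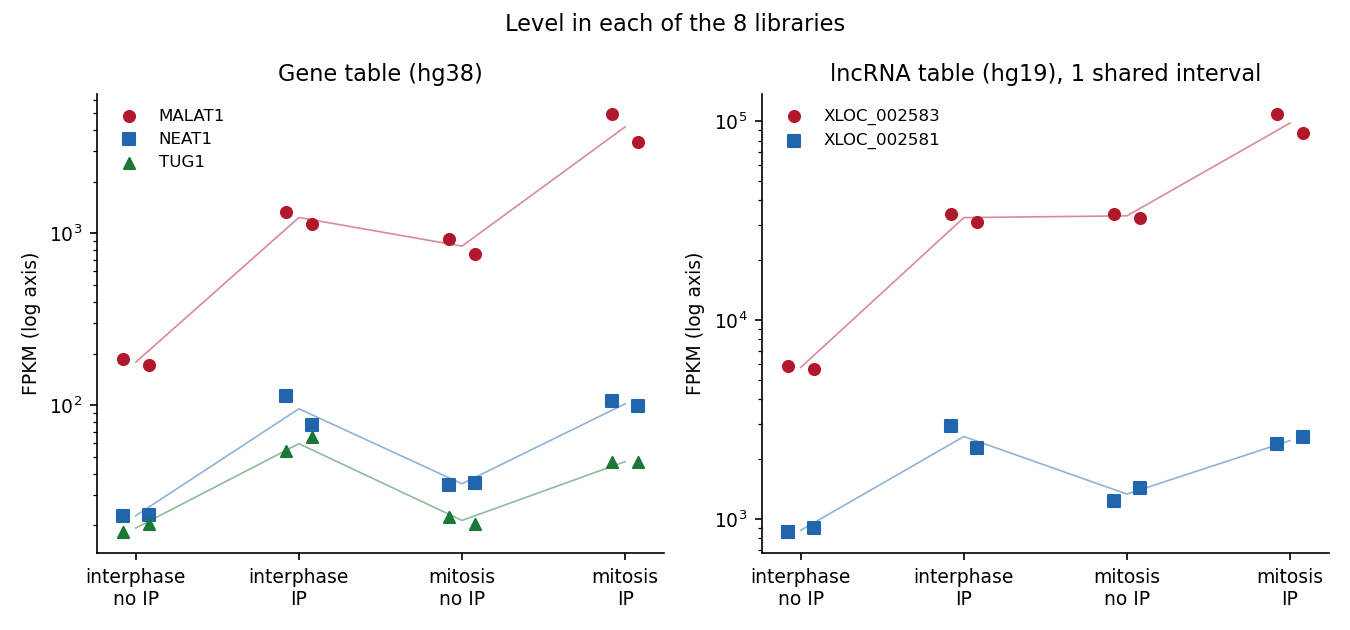
FPKM (log axis) of the 3 genes in the gene table (left) and of a pair of features of the lncRNA table (right) in each of the 8 libraries. Points are libraries and lines join group means, which have no order in time. MALAT1 climbs from 170.4 to 4919 FPKM while NEAT1 stays between 22.6 and 114 FPKM and TUG1 between 18.3 and 65.1 FPKM.

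On the log2(FPKM + 1) scale, the IP raised MALAT1 by 2.78 (SE 0.30) in interphase, a 6.88-fold change, with a limma adjusted p of 2.97e-05. In mitosis the effect of the IP was 2.29 (SE 0.30), a 4.87-fold change, with a limma adjusted p of 0.000166. Both replicate pairs gave this direction in each phase, at 2.84 and 2.73 in interphase and 2.40 and 2.17 in mitosis. Ranked by the effect of the IP, MALAT1 was the second highest gene in interphase and the fifth in mitosis. The difference between the phases, mitosis minus interphase, was -0.50 (SE 0.42) and was not called (limma adjusted p = 0.367). It was -0.76 without mitotic IP replicate 1 and -0.23 without mitotic IP replicate 2, neither called. Removing trends with transcript length and GC content lowered the interphase effect to 1.45 and the mitotic effect to 1.67, both still called, and set the difference to 0.21 (not called). Quantile normalization gave 4.07 in interphase and 4.21 in mitosis.

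Without IP, MALAT1 was 2.23 higher in mitosis than in interphase (SE 0.30, log2, 4.68-fold, limma adjusted p = 0.000439), above 99.4% of genes in the table. In the IP it was 1.73 higher in mitosis (SE 0.30, 3.32-fold, limma adjusted p = 0.000957). These bulk values cannot tell apart more RNA per cell and a different make-up of the cells collected. The phases also differed in treatment, as only the mitotic groups had the release and overnight STLC. Effects of treatment cannot be told apart from those of phase. These limits hold for each comparison of phases below. The higher mitotic IP value came from the replicate of relative depth 0.638 and the lower one from the replicate of relative depth 1.189. Leaving out each library in turn kept all 4 MALAT1 calls.

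NEAT1 was enriched in the IP of both phases, and its levels in the IP did not separate by phase. Without IP it stood at 22.6 and 23.0 FPKM in interphase and 34.4 and 35.5 FPKM in mitosis. By level it ranked 2895, 2805, 2016 and 1938 among all genes in these libraries. In the IP it stood at 114 and 77.3 FPKM in interphase and 105 and 98.4 FPKM in mitosis. The order of the group means was 22.8 ± 0.252, 35.0 ± 0.752, 95.5 ± 25.7 and 102 ± 5.00 FPKM, from interphase without IP through mitosis without IP and the interphase IP to the mitotic IP. The last pair in this order overlapped, and the spread was widest in the interphase IP, where replicate 1 was the highest of all 8 values.

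The IP raised NEAT1 by 1.99 (SE 0.16, log2, 3.98-fold, limma adjusted p = 5.62e-06) in interphase and by 1.52 (SE 0.16, 2.86-fold, limma adjusted p = 5.58e-05) in mitosis. It ranked 164 in interphase and 365 in mitosis among all genes. With length and GC trends removed the effects were 0.91 and 1.07, both still called. The difference between the phases was -0.48 (SE 0.23, limma adjusted p = 0.121), and 0.16 with those trends removed. Leaving out interphase IP replicate 2 moved it to -0.75, which passed the threshold (limma adjusted p = 0.00488). Without IP, NEAT1 was 0.59 higher in mitosis (SE 0.16, 1.51-fold, limma adjusted p = 0.014). That call was lost after quantile normalization (0.54), after removal of length and GC trends (0.38), and on leaving out any 1 of the 4 libraries without IP (0.57 to 0.62). In the IP the phase difference was 0.12 (SE 0.16, limma adjusted p = 0.547). It was 0.39 and called without interphase IP replicate 1, and -0.16 and not called without interphase IP replicate 2. After removal of length and GC trends it was 0.54 and called (limma adjusted p = 0.0129).

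TUG1 was also higher in the IP of both phases, with a smaller fitted effect than MALAT1 or NEAT1. Without IP it stood at 18.3 and 20.4 FPKM in interphase and 22.5 and 20.3 FPKM in mitosis. By level it ranked 3480, 3121, 3082 and 3391 among all genes in these libraries. In the IP it stood at 54.5 and 65.1 FPKM in interphase and 47.0 and 47.1 FPKM in mitosis. The phases overlapped without IP. In the IP both interphase libraries lay above both mitotic ones, unlike the order seen for MALAT1. The group means, from low to high, were 19.3 ± 1.52 FPKM in interphase without IP, 21.4 ± 1.56 FPKM in mitosis without IP, 47.0 ± 0.0595 FPKM in the mitotic IP and 59.8 ± 7.47 FPKM in the interphase IP.

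For TUG1 the effect of the IP was 1.58 (SE 0.12, log2, 2.98-fold, limma adjusted p = 3.3e-06) in interphase and 1.10 (SE 0.12, 2.15-fold, limma adjusted p = 5.25e-05) in mitosis. It ranked 691 and 1289 among all genes. With length and GC trends removed the effects were 0.52 and 0.64, both still called. The difference between phases was -0.47 (SE 0.16) and was called (limma adjusted p = 0.0412). The call was lost on leaving out any 1 library except interphase IP replicate 1 (-0.55 to -0.35), and the sign turned to 0.12 with length and GC trends removed. Without IP the phases differed by 0.14 (SE 0.12, limma adjusted p = 0.343). In the IP TUG1 was lower in mitosis by -0.34 (SE 0.12, limma adjusted p = 0.0322). That call was lost on leaving out mitotic IP replicate 1 (-0.33), mitotic IP replicate 2 (-0.34) or interphase IP replicate 2 (-0.21), and the value was -0.001 with length and GC trends removed.

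**Figure D2:**
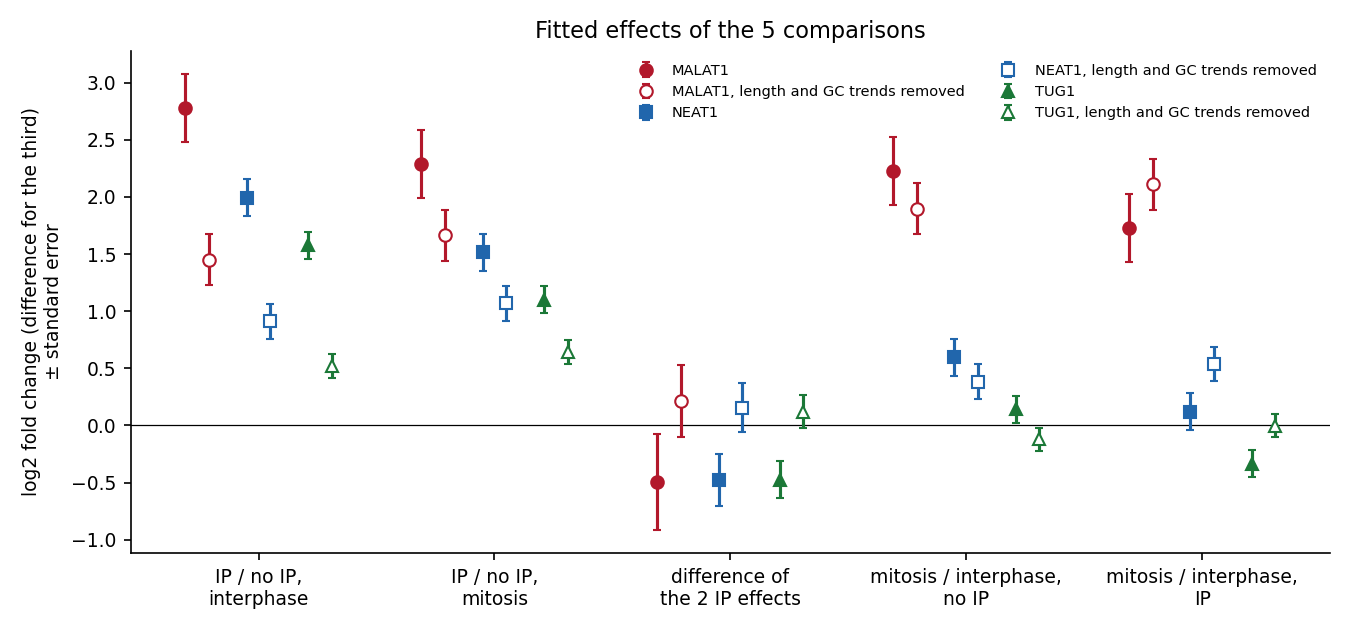
Fitted log2 fold change (vertical axis; bars are standard errors) of MALAT1, NEAT1 and TUG1 in the 5 comparisons, as fitted (filled) and with trends of transcript length and GC content removed (open). The filled effects of the IP run from 1.10 to 2.78, the open ones from 0.52 to 1.67, and the phase difference of the IP effect changes sign for all 3 genes.

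All 3 genes were called higher in the interphase IP, where 37.6% of the 13471 genes were called higher and 37.0% lower. In mitosis all 3 were called higher, beside 32.8% of all genes called higher and 31.7% lower. For the difference between phases 1 of the 3 was called, in the lower direction, beside 19.9% of all genes called lower and 27.2% called higher. Without IP, MALAT1 and NEAT1 were called higher in mitosis, and the shares of all genes were 26.2% higher and 25.5% lower. In the IP, MALAT1 was called higher and TUG1 lower in mitosis, and the shares of all genes were 35.8% higher and 25.6% lower. The balance of higher and lower calls over all genes depended on the scaling for some comparisons: in the IP, 4817 higher and 3452 lower for mitosis became 4151 and 4207 after median centring, and for the difference between phases 3662 and 2677 became 3209 and 3354 after quantile normalization.

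The size of the effects, more than the calls, placed the 3 genes among the others. Of 274 lncRNA genes with a mean of at least 1 FPKM, which had a median effect of 0.15 in interphase and 0.31 in mitosis, MALAT1 had the highest effect in both phases. NEAT1 was the fifth of them in interphase and the ninth in mitosis, and TUG1 ranked 13 and 29. Transcript length moved with the effect of the IP. The longest transcripts of MALAT1, NEAT1 and TUG1 exceed those of 93.3%, 99.9% and 89.2% of matched genes. The 1696 genes with a longest transcript of at least 7000 nt had a median effect of 0.91 in interphase and 0.29 in mitosis, against 0.02 and 0.01 over all genes. Among these long genes MALAT1 ranked 2 in both phases, NEAT1 ranked 105 and 135, and TUG1 ranked 328 and 345. Once length and GC trends were removed, the ranks among 13125 matched genes were 175 and 44 for MALAT1, 701 and 504 for NEAT1, and 2163 and 2051 for TUG1, interphase first.

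**Figure D3:**
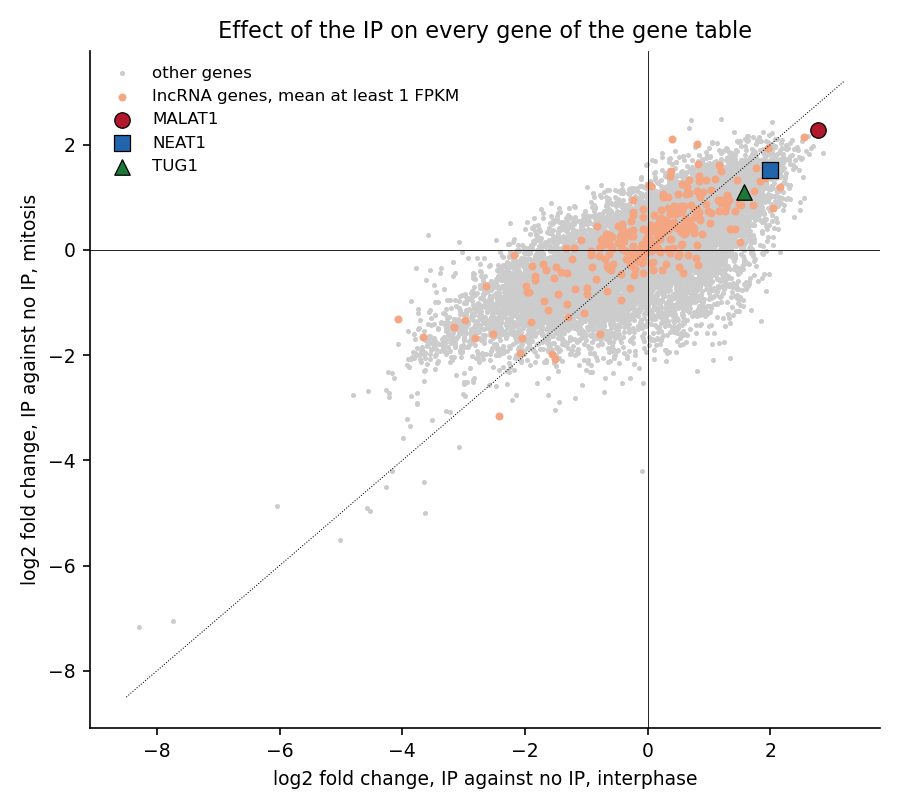
Effect of the IP (log2 fold change) on every gene of the gene table, in interphase (horizontal axis) and in mitosis (vertical axis); the dotted line marks equal effects. MALAT1 (2.78 and 2.29), NEAT1 (1.99 and 1.52) and TUG1 (1.58 and 1.10) all lie below the dotted line, at the upper right of the plot.

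The balance among the 3 RNAs shifted between groups. Per library, MALAT1 exceeded NEAT1 by 8.23-fold and 7.41-fold in interphase without IP, 11.8-fold and 14.7-fold in the interphase IP, 27.0-fold and 21.3-fold in mitosis without IP, and 46.6-fold and 34.5-fold in the mitotic IP. These ratios of length-scaled levels did not overlap between the 4 groups. NEAT1 over TUG1 moved within a narrower range, from 1.13-fold to 2.25-fold, and overlapped between interphase without IP (1.24 and 1.13) and the interphase IP (2.08 and 1.19).

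A separate table on build hg19 gave 1321 lncRNA features under assembly-style identifiers and no names. It has XLOC_002583 on chromosome 11 at 65190244 to 65278499 as the file gives them, a span of 88255 bases, and 2 further features carry the same interval. In the hg38 gene table the distance from the start of NEAT1 to the end of MALAT1 is 83715 bases. No hg19 annotation was used here, so the link to the genes was not checked by position, and levels are not compared across tables because they were normalized separately. XLOC_002583 stood at 5882 and 5688 FPKM without IP and 34287 and 31325 FPKM with IP in interphase. In mitosis it stood at 34154 and 32798 FPKM without IP and at 108398 and 87650.1 FPKM with IP. Interphase without IP was lowest, the mitotic IP highest, and the middle groups overlapped. It was the highest feature of the table in each library except interphase without IP replicate 2, where it was second. XLOC_002581 stood at 857 and 897 FPKM without IP and 2933 and 2264 FPKM with IP in interphase, and at 1235 and 1434 FPKM without IP and 2377 and 2581 FPKM with IP in mitosis. Its IP groups overlapped between phases, as those of NEAT1 did. The third feature of the interval lay between 7.74 and 87.7 FPKM.

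All 3 features of the interval were called higher in the interphase IP, beside 7.65% of the lncRNA table, at 2.50 (limma adjusted p = 0.00119) for XLOC_002583, 1.55 (limma adjusted p = 0.0061) for XLOC_002581 and 1.62 (limma adjusted p = 0.0382) for the third. In mitosis XLOC_002583 was called at 1.54 (limma adjusted p = 0.00958), beside 1.21% of the table called higher, while XLOC_002581 was at 0.90 (limma adjusted p = 0.0517) and the third at 1.47 (limma adjusted p = 0.0864). The mitotic call of XLOC_002583 was kept on leaving out either interphase IP library and lost on leaving out any other (1.39 to 1.70). The phase difference of the IP effect was -0.96 for XLOC_002583 (limma adjusted p = 0.238). By limma no feature of this table was called for that difference (0.00%), and 149 had an unadjusted p below 0.05. Without IP, XLOC_002583 was 2.53 higher in mitosis (limma adjusted p = 0.00111), beside 6.89% called higher, and in the IP it was 1.57 higher (limma adjusted p = 0.00644), beside 8.33% called higher. The latter call was lost without mitotic IP replicate 1 (1.42, limma adjusted p = 0.0722). Quantile normalization, which gives the top row of every library 1 value, ended all 4 calls of XLOC_002583. XLOC_002581 differed between phases by 0.60 without IP (limma adjusted p = 0.0774) and by -0.06 in the IP (limma adjusted p = 0.892).

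The patterns of the features over the 8 libraries can be set beside those of the genes. After centring each on its own mean of log2(FPKM + 1), XLOC_002583 had a root mean square difference of 0.30 from MALAT1 (Pearson's r = 0.99), against 0.88 from NEAT1 and 1.14 from TUG1. XLOC_002581 had 0.28 from NEAT1 (r = 0.99), 0.27 from TUG1 (r = 0.92) and 1.10 from MALAT1. The third feature of the interval had 0.52 from NEAT1 (r = 0.86), 0.63 from MALAT1 (r = 0.98) and 0.76 from TUG1 (r = 0.68). For it the smallest difference and the highest r thus fell on different genes. The points are the same libraries in both tables, so these values are a description. The ratio of XLOC_002583 to XLOC_002581 was 6.86 and 6.34 in interphase without IP, 11.7 and 13.8 in the interphase IP, 27.7 and 22.9 in mitosis without IP, and 45.6 and 34.0 in the mitotic IP. Its order over the groups was that of MALAT1 over NEAT1.

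Genes around the 3 lncRNAs were called lower in the interphase IP, or were not called, in the fit without removal of trends. Within 250 kb of MALAT1 the table held 16 further genes besides NEAT1. In the interphase IP 0 of these were called higher and 15 lower, beside 37.6% and 37.0% of all genes. Their median effect was -1.34 and their highest group mean 27.3 FPKM. In the mitotic IP, where 31.7% of all genes were called lower and 32.8% higher, 12 of the 16 were called lower and 1, POLA2, a subunit of DNA polymerase alpha, was called higher at 0.51. FRMD8, which lies 9.27 kb from NEAT1 and is its nearest neighbour, was lower by -1.53 in interphase (limma adjusted p = 2.33e-05) and -0.84 in mitosis. With length and GC trends taken out, 9 of the 16 were called lower and 1 higher in interphase (median -0.46), and 7 lower and 3 higher in mitosis (median -0.28). Of the 7 genes within 250 kb of TUG1, 0 were called higher and 5 lower in interphase, with a median of -0.52, and with those trends taken out 1 was called higher and 3 lower, with a median of -0.25. In mitosis 1 was called higher and 3 lower, with a median of -0.14, and with those trends taken out 3 were called in each direction, with a median of 0.15. MORC2 lies 0.713 kb from TUG1 and is the gene across its bidirectional promoter. In interphase its effect was 0.10 (limma adjusted p = 0.546), at 2.56 FPKM without IP against 2.81 FPKM with it. In mitosis its effect was 0.07 (limma adjusted p = 0.689), at 3.97 FPKM without IP against 4.21 FPKM with it.

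**Figure D4:**
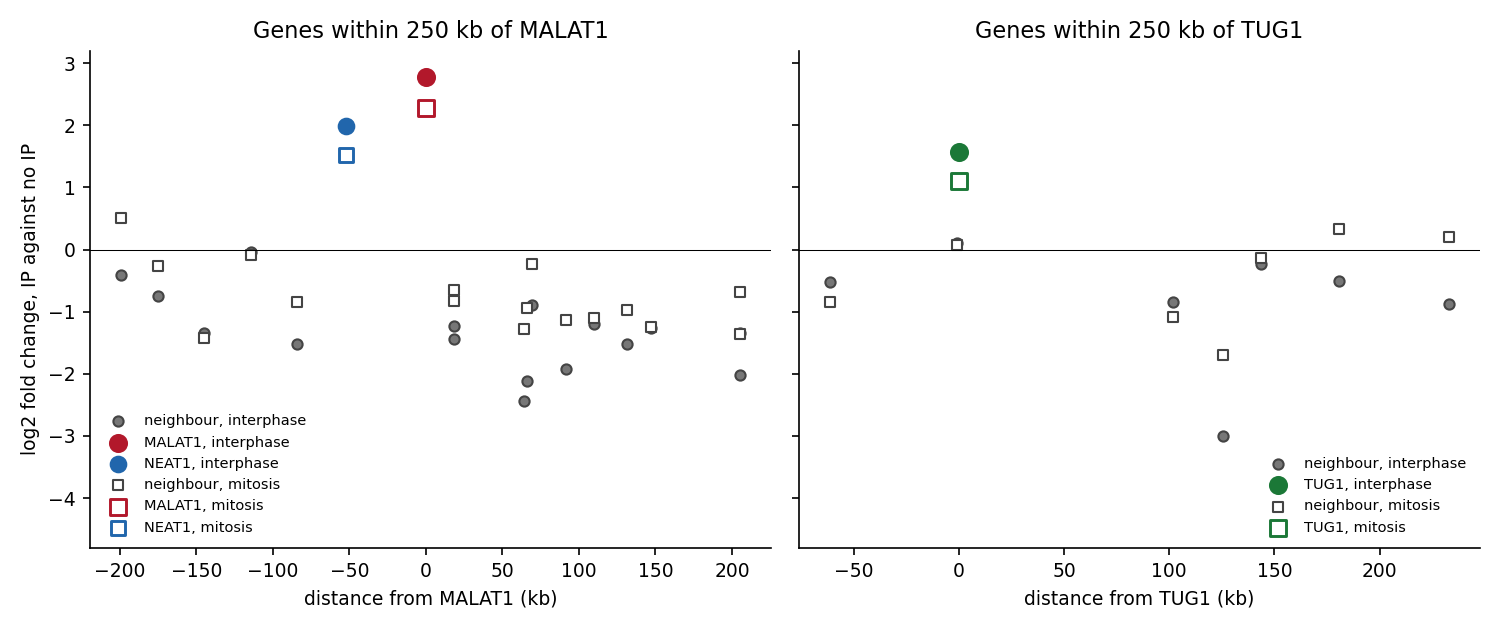
Effect of the IP (log2 fold change, vertical axis) on genes within 250 kb of MALAT1 (left) and TUG1 (right) by distance in kb (horizontal axis), in interphase (filled circles) and mitosis (open squares). NEAT1, MALAT1 and TUG1 lie between 1.10 and 2.78, above every neighbour in the panels, whose effects run from -2.99 to 0.51.

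Genes with the patterns most like those of the 3 lncRNAs were taken from 5828 genes with a mean of at least 10 FPKM, by the root mean square difference of centred log2(FPKM + 1) over the 8 libraries. They were chosen for that likeness, which is given with no test. For MALAT1, the ranks from 2 to 5 were ASPM, a spindle pole protein, FAM126A, part of a lipid kinase complex, ARHGAP11A, a GTPase-activating protein, and RAB3GAP2, a subunit of a Rab3 regulator, with differences from 0.35 to 0.47. RAB3GAP2 shares its interval with AURKAPS1, so its value is uncertain. ASPM went from 5.86 FPKM without IP to 41.5 FPKM with it in interphase, and stood at 43.3 FPKM in mitosis without IP and 158 FPKM in the mitotic IP. NEAT1 was at rank 337 for MALAT1 with a difference of 0.91, and TUG1 at rank 1311 with 1.21. For NEAT1 the 5 closest were IFNAR1, a chain of the interferon alpha and beta receptor, UBE2K, a ubiquitin-conjugating enzyme, MAPK6, an atypical MAP kinase, PPP2R5E, a regulatory subunit of phosphatase PP2A, and ZNF770, a zinc finger protein, at 0.15 to 0.18. For TUG1 they were ZC3H12C, an RNA-binding CCCH zinc finger protein, CCNT1, the cyclin of the elongation factor P-TEFb, MTMR2, a lipid phosphatase, ABHD13 and the lncRNA EBLN3, at 0.057 to 0.085. The longest transcripts of the 14 genes named here run from 4520 to 13177 nt.

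Proteins of the bodies and machines that these RNAs are known to work with were read as mRNAs from lists drawn up for these roles, and each list is read against all genes. For the IP these had medians of 0.02 in interphase, with 37.6% called higher and 37.0% lower, and 0.01 in mitosis, with 32.8% called higher and 31.7% lower. Among 18 mRNAs of paraspeckle proteins, the partners of NEAT1, 7 were called higher and 2 lower in the interphase IP (median 0.22), and 7 higher and 5 lower in the mitotic IP (median 0.16), so that the share called higher was near that of all genes. ZNF24 was the highest in interphase at 1.56, from 16.1 to 49.2 FPKM, and DAZAP1 the lowest at -0.73. In mitosis RBM12, whose interval is shared with CPNE1, was the highest at 1.84, and NONO, a core paraspeckle protein, the lowest at -2.17, from 88.5 ± 5.17 to 18.9 ± 0.168 FPKM. Without IP, 14 of the 18 were called higher in mitosis and 1 lower, with a median of 0.69, beside 26.2% of all genes called higher, 25.5% lower and a median of -0.0023. With length and GC trends removed, the IP had 4 called higher and 6 lower in interphase (median -0.02) and 4 higher and 7 lower in mitosis (median -0.04), and ZNF24 was at 0.13 and no longer called.

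Among 14 mRNAs of nuclear speckle proteins, the setting of MALAT1, the interphase IP held 8 called higher and 4 lower (median 0.61), beside 37.6% and 37.0% of all genes. In the mitotic IP 4 were called higher and 9 lower, with a median of -0.66, beside 32.8% and 31.7% of all genes. For the difference between phases itself, 8 of the 14 were called lower and 1 higher (median -0.79), beside 19.9% and 27.2% of all genes; with length and GC trends removed 6 were called lower and 1 higher (median -0.40). SON, a large scaffold of speckles, was at 13.8 FPKM without IP against 35.9 FPKM with it in interphase (1.32), and U2AF2, which recognizes the polypyrimidine tract of introns, was the lowest there at -1.82. In mitosis PNN was the highest at 0.67 and ACIN1, which shares its interval with C14orf119, the lowest at -1.65. Removing length and GC trends turned the interphase median to -0.22, with 3 called higher and 7 lower, and left the mitotic median negative at -1.01, with 1 called higher and 10 lower. In that fit PNN was at 0.20 and not called, SON was at 0.59 and U2AF2 at -0.83, both called.

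Of 18 listed factors of 3′ end processing and decay, 16 were in the table, and 5 were called higher and 8 lower in the interphase IP (median -0.45), and 4 higher and 9 lower in the mitotic IP (median -0.41), beside 37.0% and 31.7% of all genes called lower. RPPH1, the RNA subunit of the RNase P that cuts MALAT1 and NEAT1, was the lowest in both phases. In interphase it averaged 154900 ± 18660 FPKM without IP against 921 ± 809 FPKM with it, an effect of -7.74 (SE 1.33, limma adjusted p = 0.000626), and its mitotic effect was -7.05. These effects were -5.42 and -5.55 with length and GC trends removed, and -4.85 and -4.76 after quantile normalization, all called. SKIV2L2, a helicase of the nuclear exosome whose interval is shared with PPAP2A and RNF138P1, was the highest in interphase at 1.51. RPP14, a protein subunit of RNase P, was the highest in mitosis at 1.14. The list medians were -0.15 and 0.02 with length and GC trends removed, where SKIV2L2 was at 0.57 and RPP14 at 0.68, both called. Among 12 Polycomb mRNAs, 4 were called higher and 4 lower in interphase (median -0.25), and 3 higher and 6 lower in mitosis (median -0.06, and 0.04 after median centring). The interphase shares are near the 37.6% and 37.0% of all genes, and in mitosis 32.8% of all genes were called higher and 31.7% lower. With length and GC trends removed, 4 were called higher and 5 lower in interphase, and 2 higher and 3 lower in mitosis. SUZ12, a core subunit of Polycomb complex PRC2, was at 23.0 FPKM without IP against 90.3 FPKM with it in interphase (1.93), and at 24.4 FPKM without IP against 13.8 FPKM with it in mitosis. RING1 was the lowest in interphase at -1.81, JARID2 the lowest in mitosis at -1.66, and BMI1, whose interval is shared with COMMD3, the highest in mitosis at 1.21. Removal of the same trends left SUZ12 at 0.86, RING1 at -0.25 (interphase) and BMI1 at 0.67 (mitosis), all called.

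Other lncRNAs differed in direction. Of 12 listed lncRNAs that are mainly nuclear, 8 were in the table, and 4 were called higher and 1 lower in interphase (median 0.47), and 4 higher and 2 lower in mitosis (median 0.40), beside 37.6% and 32.8% of all genes called higher. LINC-PINT was the highest in both, at 1.20 in interphase, and going from 17.0 ± 0.143 to 50.1 ± 6.20 FPKM in mitosis. PVT1 was the lowest in interphase at -0.68 and CRNDE in mitosis at -0.72. Once length and GC trends were taken out, 1 was called higher and 3 lower in interphase, with a median of -0.06. PVT1 was then at 0.26 and LINC-PINT at 0.15 in interphase, neither called. For the mitotic IP that fit had 4 called higher and 2 lower, with a median of 0.28. LINC-PINT was at 1.02 and CRNDE at -1.11 in mitosis, both called. The list of lncRNAs that are mainly cytoplasmic or host snoRNAs had 16 names, with LINC00657 also under its other name, NORAD. Of these names, 13 were in the table. There, 3 were called higher and 10 lower in interphase (median -1.04), and 2 higher and 8 lower in mitosis (median -0.77), beside 37.0% and 31.7% of all genes called lower. OIP5-AS1 was the highest in interphase at 2.05, above NEAT1 and TUG1, going from 25.6 ± 1.43 to 109 ± 6.25 FPKM. LINC00657 (also called NORAD) was the highest in mitosis at 1.55, going from 78.5 ± 0.710 to 232 ± 6.56 FPKM. SNHG8, a snoRNA host whose interval is shared with SNORA24, was the lowest in both phases at -2.81 and -1.68. With length and GC trends removed the medians of this list were -0.64 and -0.61, and OIP5-AS1 was at 0.60 and still called.

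**Figure D5:**
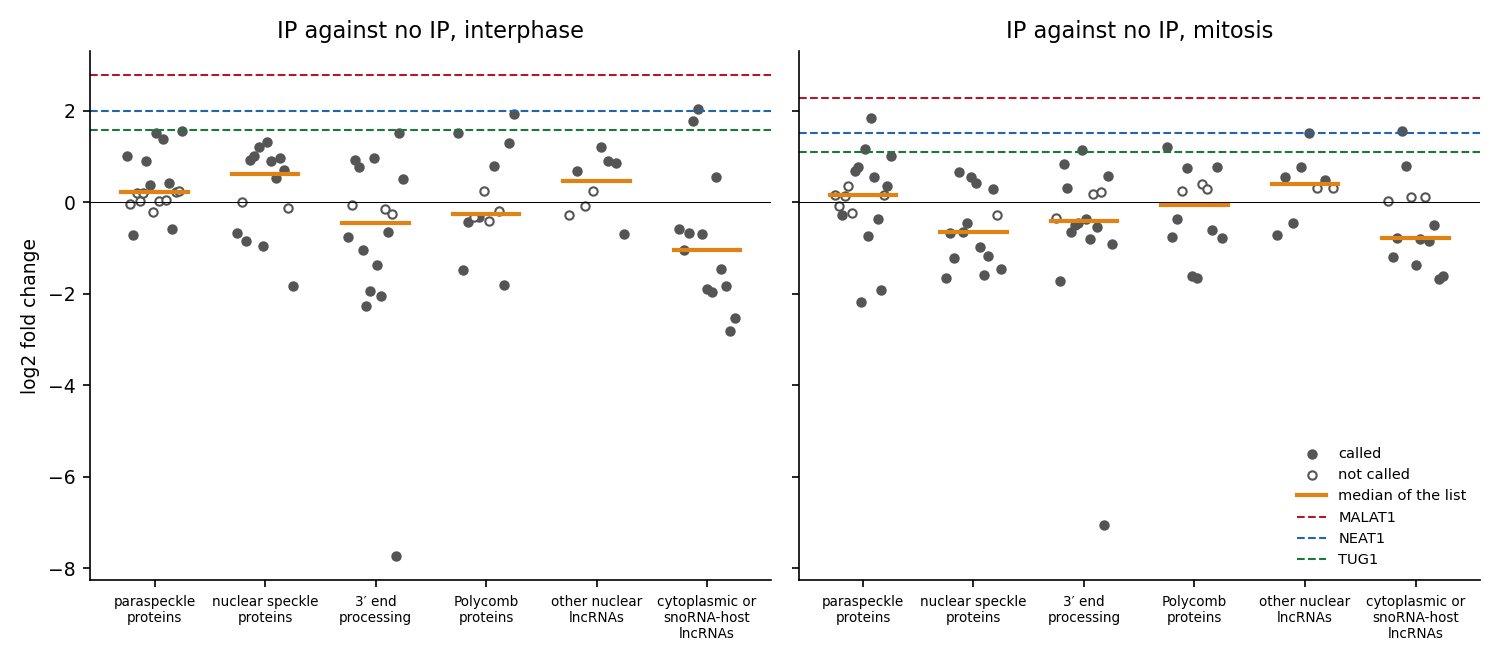
Effect of the IP (log2 fold change) on each member of the 6 lists in interphase (left) and mitosis (right); filled points were called, open points were not, orange bars are list medians and dashed lines mark MALAT1, NEAT1 and TUG1. The MALAT1 line (2.78 and 2.29) lies above every list member in both panels, and the list medians run from -1.04 to 0.61.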

How the data were processed

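The values are FPKM that the authors deposited with 1 column per library, per the file headers, in a gene table on hg38 and a lncRNA table on hg19. The submitters' processing notes name TopHat and StringTie. Ratio columns deposited by the authors are quotients of these FPKM columns (0 of 80826 gene-table values were off by more than 0.0001, relative) and were not used further. Of the genes, 97.4% were matched to GENCODE 29 by symbol or synonym, and 21.3% share an interval with another gene.

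log2(FPKM + 1) was fitted in limma 3.58.1 (R 4.3.3; lmFit, eBayes with trend), with 4 group coefficients, all 8 libraries (4 residual degrees of freedom) and no filter. P-values were adjusted by Benjamini-Hochberg over each table, and features with an adjusted p below 0.05 were called. The code was tested on simulated data. Fold changes understate changes near 1 FPKM. Alternatives were a pseudocount of 0.1, a mean of at least 1 FPKM, quantile normalization, median centring, a replicate block, natural-spline trends with transcript length and GC content removed from each library, and each library left out. The labels do not say whether replicates are separate cultures, so p-values measure only the spread between these libraries. The genes and lists were chosen with earlier results of these data known. Named from the lists are the highest and lowest called members in each phase, then the 5 closest patterns and the nearest neighbours. Some genes that this rule names are not reported here.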

Additional observations from a re-analysis of the deposited data

Results flagged for a closer look

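TUG1 was flagged because its effect of the IP differed between the phases by the test of the difference itself, at -0.475 on the log2 scale (mitosis minus interphase, SE 0.16, limma adjusted p = 0.0412). In interphase the effect was 1.58 and in mitosis 1.10, and both replicate pairs gave a negative difference, at -0.50 and -0.45. Leaving out each library in turn gave differences from -0.60 to -0.35, and the call was lost in most of these fits, as given above. The fitted differences of MALAT1 (-0.50) and NEAT1 (-0.48) were of like size with larger standard errors (0.42 and 0.23) and were not called. The value for TUG1 was 0.12 and not called with length and GC trends removed, and the 1696 genes with a longest transcript of at least 7000 nt had a median difference of -0.40, against 0.07 over all genes.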

How the results depend on the processing

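Of 355 values of the 3 genes and 2 lncRNA features under alternatives, 303 kept direction and side of the threshold. The effects of the IP on MALAT1, NEAT1 and TUG1 kept their calls in both phases under all 15 alternatives, as did both phase comparisons of MALAT1. The cause of the changes below was not tested unless stated. With length and GC trends removed, the phase difference of the IP effect was 0.21 for MALAT1, 0.16 for NEAT1 and 0.12 for TUG1, the values without IP were 0.38 (NEAT1) and -0.12 (TUG1), and those in the IP 0.54 (NEAT1) and -0.0013 (TUG1); adding the replicate block gave the same values and calls, except that NEAT1 without IP was called again (adjusted p = 0.0489). After quantile normalization the difference was 0.14 for MALAT1 and 0.031 for XLOC_002581, NEAT1 was at 0.54 without IP and -0.23 in the IP, and XLOC_002581 at 0.61 in the IP. XLOC_002583 was at 1.44 for the interphase IP and for phase without IP and at 0.0 for the mitotic IP and for phase in the IP, because that method gives the top row of every library 1 value. A mean of at least 1 FPKM gave XLOC_002581 a call in the mitotic IP (0.90).

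Leaving out 1 library each (the lone library of its group is then taken to vary like the others) gave ranges for the phase difference of -0.76 to -0.23 (MALAT1), -0.75 to -0.20 (NEAT1) and -0.60 to -0.35 (TUG1), for phase without IP of 0.57 to 0.62 (NEAT1), and for phase in the IP of -0.16 to 0.39 (NEAT1), -0.46 to -0.21 (TUG1), -0.24 to 0.13 (XLOC_002581) and 1.42 to 1.73 (XLOC_002583). For XLOC_002583 in the mitotic IP the range was 1.39 to 1.70.

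Replicate numbers are shared only as numbers. Deviations of same-numbered libraries correlated at 0.088 to 0.528 (gene table) or 0.554 to 0.681 (lncRNA table). The replicate block alone changed no call of the 3 genes. It added calls of XLOC_002583 for the difference (-0.96) and of XLOC_002581 in the mitotic IP (0.90) and for phase without IP (0.60). Calls in the lncRNA table went from 217 to 353 (interphase IP), 53 to 176 (mitotic IP), 0 to 13 (difference), 161 to 326 (phase without IP) and 194 to 332 (phase in the IP) with the block. Leaving out 1 library gave 44 to 164, 0 to 23, 0 to 0, 23 to 113 and 0 to 144, and quantile normalization 3 in the mitotic IP. Median centring moved the median of all genes from 0.02 to 0.14 for the interphase IP. Among lncRNA features this median went from -0.02 to 0.13, 46.5% of the interphase IP calls were higher, and 57.9% after quantile normalization; the other lncRNA splits went from 30.2% to 0.0% (mitotic IP), 56.5% to 68.2% (phase without IP, median centring). Depth is known only as a ratio between libraries, so no detection limit can be given.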
